A study of Saccharomyces cerevisiae with 11 samples.

Results

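The genes described here are the 10 genes of beta-1,6-glucan synthesis KRE1, KRE5, KRE6, KRE9, KNH1, SKN1, BIG1, ROT1, CWH41 and ROT2, chosen by gene symbol from the platform's gene table. They are 10 of the 5656 yeast genes that the array names by a single symbol, and 16 of its 9335 probe sets carry their symbols. KRE5 has 6 of these probe sets, BIG1 has 2 and the other 8 genes have 1 each. A gene is described by its main probe set, the brightest in wild-type cells among those whose type marks a single target, and all 10 main probe sets read above background on all 11 arrays.

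Budding yeast, Saccharomyces cerevisiae, was diluted into YPD (yeast extract, peptone and glucose) and grown until the optical density stood between 1.6 and 1.8, and its RNA was hybridised to Affymetrix YG-S98 arrays. The parental wild-type strain BY4741 was left untreated on 3 arrays, received 15 mM glucosamine during its final 2 h of growth on 3 arrays, and on 3 arrays, called continuous here, was kept in 15 mM glucosamine overnight and again after dilution. A mutant of FKS1, strain 5251, was untreated (1 array) or given 15 mM glucosamine (1 array, titled 2 h; its description gives 2 h of growth before the addition and no time in glucosamine). Glucosamine is an amino sugar that can feed the synthesis of chitin, and FKS1 encodes a catalytic subunit of the beta-1,3-glucan synthase. The labels do not give the nature of the fks1 mutation, and the replicate numbers are not said to mark separate cultures, so p-values measure a spread between arrays that may be technical.

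Beta-1,6-glucan is a short, branched polymer of the yeast wall that links mannoproteins to beta-1,3-glucan and chitin. Its synthesis needs proteins along the whole secretory route, and no single gene is known to encode the polymerase with certainty. In the endoplasmic reticulum act KRE5, which resembles the glucosyltransferase of glycoprotein quality control, the membrane protein BIG1, the chaperone ROT1, and the N-glycan trimming enzymes CWH41 (glucosidase I) and ROT2 (the catalytic subunit of glucosidase II). KRE6 and its homologue SKN1 are membrane proteins that resemble glycosyl hydrolases, KRE9 and its homologue KNH1 are secreted O-glycoproteins, and KRE1 is a cell surface protein that also serves as the receptor of the K1 killer toxin.

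Values are array signals in arbitrary units, used as the submitters normalised them, with a trimmed mean of 500.4 or 500.5 on every array. Median signals of the arrays lay between 122.7 and 150.0, with the highest on the untreated fks1 array, and the background level was set at 25.5, the 95th percentile of 19 control probe sets without target RNA. FKS1 itself read 6591.4 to 8256.7 on the wild-type arrays and 24.4 and 6.6 on the 2 arrays labelled fks1. The ratio of the 5′ to the 3′ probe set of ACT1, a measure of RNA length, was 0.65 to 0.78 in wild type and 0.81 and 0.73 in fks1. RNA came from whole cultures, in which fewer cells of a type and less RNA per cell cannot be told apart. Over all 11 arrays the mating type a genes MFA2 and STE2 read 4655.4 to 7512.3 and 841.8 to 1732.1, and the alpha genes MF(ALPHA)1, MF(ALPHA)2 and STE3 read 72.3 to 112.1, 37.9 to 61.5 and 30.9 to 93.8. These levels are given singly, since each probe set has its own response.

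**Figure D1:**
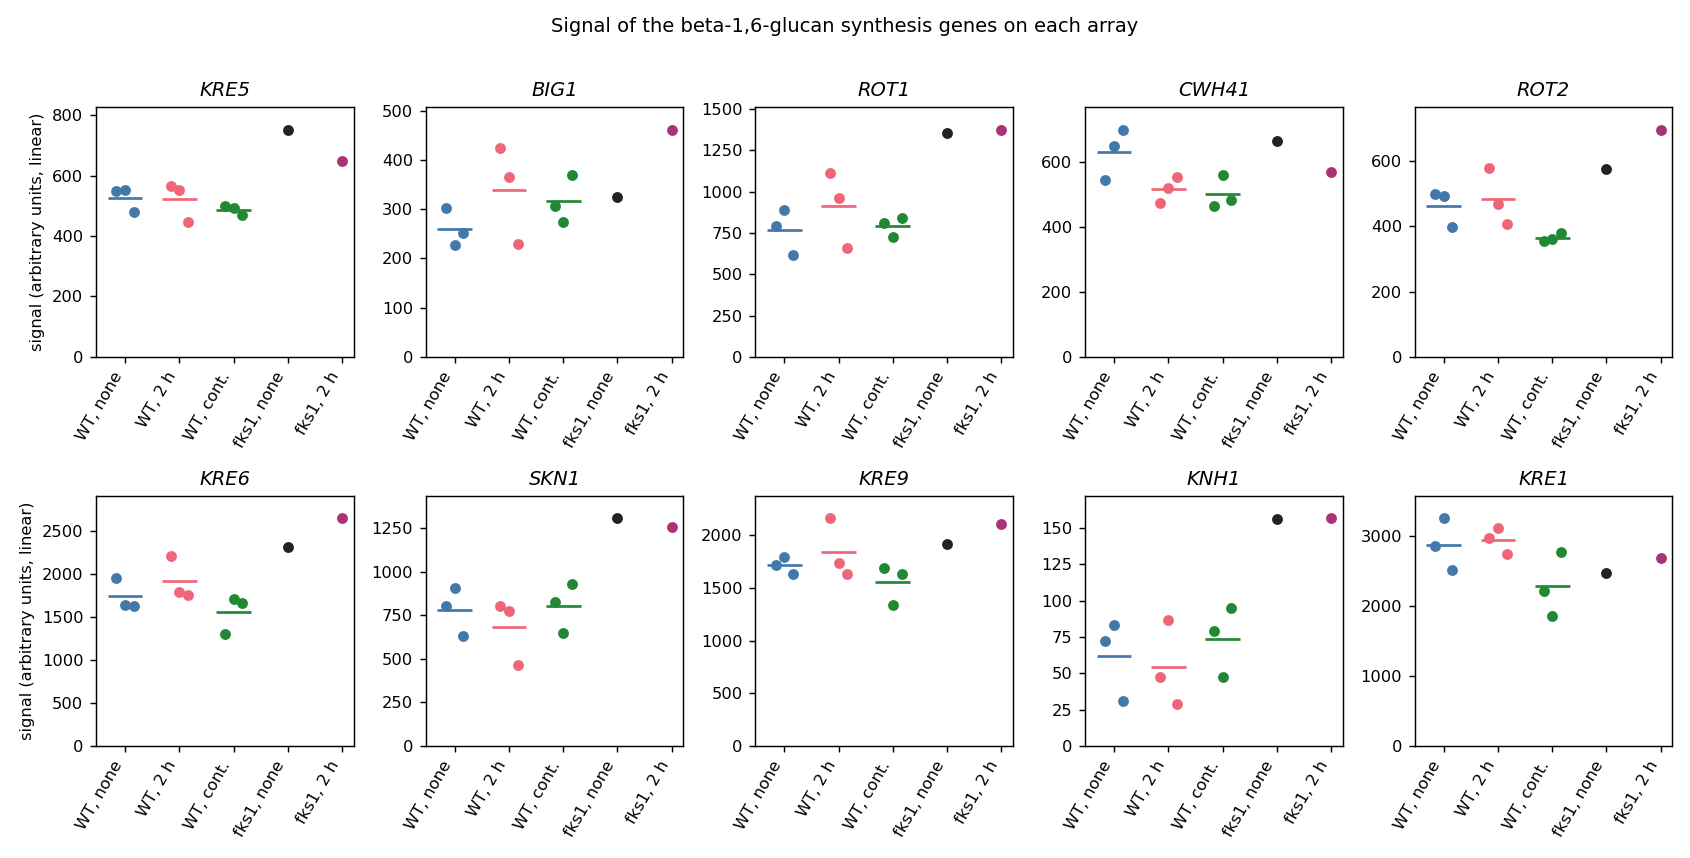
Signal of the main probe set of each gene (linear axis from 0, arbitrary units) on each array, by strain and treatment; points are arrays and bars are means of 3 wild-type arrays. The fks1 points of KNH1, at 156.5 and 156.8, stand above all 9 wild-type arrays, which end at 95, while CWH41, KRE9 and KRE1 in fks1 lie within the wild-type range.

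KRE5 signals on the untreated wild-type arrays were 548.6, 552.7 and 479.0, on the 2 h arrays 566.8, 550.8 and 445.7, and on the continuous arrays 498.6, 492.7 and 470.9. The 3 wild-type groups overlapped, and KRE5 had the smallest span of all 10 genes, 1.27-fold from the lowest to the highest wild-type array. On the fks1 arrays it read 752.6 untreated and 649.6 with glucosamine, above all 9 wild-type arrays. The 5 further KRE5 probe sets also read higher on the untreated fks1 array than on every untreated wild-type array, for example 418.1 against 203.3 to 342.7 on the brightest of them. With glucosamine 1 of these 5 did so (195.9 against 21.4 to 151.9), and the other 4 lay inside the range of the 2 h wild-type arrays, the brightest at 411.5 against 273.1 to 421.2. They were less even between replicates than the main probe set. Another of them read 190.3, 49.2 and 66.9 on the untreated wild-type arrays and 261.4, 113.6 and 120.2 on the 2 h arrays, so that array number 1 was the highest in both groups. Probe sets of the same gene share the RNA sample and are no independent replicates.

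BIG1 signals were 303.4, 226.6 and 251.5 in untreated wild type, 424.8, 364.6 and 229.0 after 2 h, and 305.7, 273.8 and 370.4 in continuous glucosamine. The third 2 h array lay inside the untreated range, so the groups overlapped. In fks1 BIG1 read 325.5 untreated and 462.0 with glucosamine, each above the wild-type arrays of the same treatment. The further BIG1 probe set did the same, with 92.6 against 58.9 to 84.2 untreated and 85.7 against 48.6 to 83.7 after 2 h.

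ROT1 signals were 790.1, 889.8 and 619.1 untreated, 1113.5, 962.8 and 655.6 after 2 h, and 806.8, 726.7 and 837.2 in continuous glucosamine. Array number 3 was the lowest in both the untreated and the 2 h group. The arrays numbered 3 were the lowest for 8 of the 10 members among the untreated arrays and for 9 of 10 among the 2 h arrays, and continuous array 2 for 6 of 10. The share of all probe sets that were lowest on these arrays was not counted, so these counts do not set the members apart. These 3 arrays also had the lowest ACT1 ratio of their group (0.69, 0.65 and 0.73), and the part of RNA length in the members' values was not tested. The fks1 arrays read 1352.2 untreated and 1375.0 with glucosamine, above all 9 wild-type arrays, which ended at 1113.5.

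The glucosidase genes were not tested against each other. CWH41, whose enzyme removes the outermost glucose of the N-glycan, read 541.9, 646.4 and 698.2 untreated, 472.3, 518.5 and 552.0 after 2 h, and 462.2, 559.5 and 483.2 in continuous glucosamine. Each treated group overlapped the untreated group only through untreated array 1. In fks1 CWH41 read 662.1 and 567.8, inside the wild-type range. ROT2, whose enzyme removes the next glucoses, read 499.4, 490.8 and 397.7 untreated, 576.9, 466.3 and 406.6 after 2 h, and 353.8, 360.8 and 377.9 in continuous glucosamine. The 3 continuous arrays had a CV of 3.4% and lay below every other array of either strain. In fks1 ROT2 read 574.5 untreated and 695.2 with glucosamine.

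KRE6 signals were 1947.4, 1640.8 and 1622.5 untreated, 2204.1, 1787.3 and 1751.8 after 2 h, and 1301.2, 1709.8 and 1658.9 in continuous glucosamine. The continuous arrays lay below every 2 h array and overlapped the untreated ones, and the fks1 values of 2308.9 and 2646.3 lay above all 9 wild-type arrays. Its homologue SKN1 read 805.4, 907.8 and 633.2 untreated, 803.3, 776.4 and 464.0 after 2 h, and 826.4, 650.4 and 932.4 in continuous glucosamine. All 3 wild-type groups of SKN1 overlapped, and array number 3 was the lowest in the untreated and 2 h groups. The fks1 arrays read 1307.6 untreated and 1258.9 with glucosamine, both above the highest wild-type array at 932.4.

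KRE9 signals were 1714.1, 1790.5 and 1635.3 untreated, 2160.8, 1739.4 and 1633.5 after 2 h, and 1689.8, 1335.4 and 1634.3 in continuous glucosamine, with fks1 at 1915.6 and 2106.2. The groups overlapped, and the fks1 array with glucosamine lay below the highest 2 h wild-type array. KNH1, the homologue of KRE9, came close to the background level on single arrays, with 72.0, 83.0 and 30.6 untreated, 47.2, 86.4 and 29.1 after 2 h, and 79.2, 47.3 and 95 in continuous glucosamine. Its wild-type arrays spanned 3.26-fold, the widest of the 10 genes, with a CV of 54.0% in the 2 h group. In fks1 it read 156.5 and 156.8.

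KRE1 signals were 2855.6, 3248.6 and 2507.7 untreated, 2971.7, 3116.4 and 2744.9 after 2 h, and 2213.3, 1852.0 and 2761.7 in continuous glucosamine. The third continuous array overlapped both other groups. KRE1 was the 1 member that read lower in fks1 than on every wild-type array of the same treatment, at 2462.7 untreated and 2676.6 with glucosamine, and both values lay inside the range of the 9 wild-type arrays.

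After 2 h of glucosamine the beta-1,6-glucan genes showed no called change in wild type. The 9 wild-type arrays were compared in limma, a linear model across all probe sets, on log2 signals, with adjusted p under 0.05 as the threshold over 8616 probe sets. No member passed, where 0.0348% of all probe sets did (3 of 8616), and 0 of the 10 had an unadjusted p under 0.05 by limma, where 6.06% of all probe sets had one. The largest positive difference was that of BIG1, which measured 260.5 ± 39.2 untreated and 339.5 ± 100.3 after 2 h (SD, n = 3; log2 difference 0.35, SE 0.24, adjusted p = 0.912 by limma), and the largest negative one that of CWH41, from 628.8 ± 79.6 to 514.3 ± 40.0 (log2 -0.29, SE 0.15, adjusted p = 0.857). The median of the 10 differences was 0.05, against -0.02 for all probe sets tested, with 6 members positive and 4 negative (7 and 3 when the arrays were scaled to a common median). Of all probe sets tested 46.1% were positive. No member had groups without overlap, where 4.64% of all probe sets were higher and 6.35% lower in that way.

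Untreated and 2 h arrays of the same number deviated together from their group means (r = 0.356 to 0.570 over the 3 pairs), so each numbered pair is also a comparison. The pairing was read from these same data and is not given by the labels. CWH41 was lower after 2 h in 3 of 3 pairs, by log2 -0.20, -0.32 and -0.34. SKN1 was also lower in all 3 pairs, by -0.0038, -0.23 and -0.45, and 20.7% of all probe sets were lower in that way. KRE6 was higher in 3 of 3 pairs (0.18, 0.12 and 0.11), as was ROT1 (0.49, 0.11 and 0.08), and 14.2% of all probe sets were. With the pairs as a block in a fit of the 6 arrays, CWH41 had an unadjusted p of 0.047 and an adjusted p of 0.381 by limma. It was the 1 member of 10 with an unadjusted p under 0.05, where 12.8% of all probe sets had one, and again no member passed, while 0.197% of all probe sets did (17 in place of 3).

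In continuous glucosamine 6 of the 10 genes read lower and 4 higher than untreated on average (8 and 2 with a common median), where 52.4% of all probe sets read higher. No member passed, where 1.44% of all probe sets did (124 of 8616). The largest negative difference was that of KRE1, which measured 2870.6 ± 370.7 untreated and 2275.7 ± 458.0 in continuous glucosamine (SD, n = 3; log2 difference -0.35, SE 0.16, adjusted p = 0.373 by limma). It was followed by ROT2, from 462.6 ± 56.4 to 364.2 ± 12.4 (-0.34, SE 0.17, adjusted p = 0.408 by limma), and CWH41, from 628.8 ± 79.6 to 501.6 ± 51.2 (-0.32, SE 0.15, adjusted p = 0.373). None of the 10 had an unadjusted p under 0.05 by limma, where 13.8% of all probe sets had one. ROT2 was the 1 member whose continuous arrays all lay below the untreated ones, and 9.48% of all probe sets did so, while 10.6% lay above in that way and 0 members did. The median member difference was -0.13, against 0.02 for all probe sets tested. Any batch of the continuous arrays, which the labels do not give, cannot be told apart from the treatment.

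Continuous glucosamine set directly against 2 h gave lower signals for 8 of the 10 genes, all but SKN1 and KNH1, where 55.7% of all probe sets read higher. Again no member passed, where 0.0580% of all probe sets did (5 of 8616). KRE1 (log2 -0.39, SE 0.16, unadjusted p = 0.0341, adjusted p = 0.323 by limma) and ROT2 (-0.39, SE 0.17, unadjusted p = 0.0387, adjusted p = 0.336) were the 2 members with an unadjusted p under 0.05, where 14.0% of all probe sets had one. KRE6 measured 1914.4 ± 251.5 after 2 h and 1556.6 ± 222.7 in continuous glucosamine (SD, n = 3; -0.30, SE 0.15, adjusted p = 0.407). ROT2 and KRE6 had continuous arrays below every 2 h array, which was so for 7.14% of all probe sets, and 0 members lay above every 2 h array, which was so for 11.5%. The median member difference was -0.13, against 0.05 for all probe sets.

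The precision of these comparisons differed between the genes. The 95% interval of a difference in wild type had a half-width of 0.31 on the log2 scale for KRE5, the narrowest, and of 1.08 for KNH1, the widest, with a median of 0.36 over the 10 genes. For KRE5 the interval after 2 h ran from -0.33 to 0.29, and for KRE9 from -0.22 to 0.41. For KNH1 it ran from -1.29 to 0.87, so that a 2-fold lower level lay inside it. An adjusted p over the threshold therefore does not show that a gene kept its level.

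**Figure D2:**
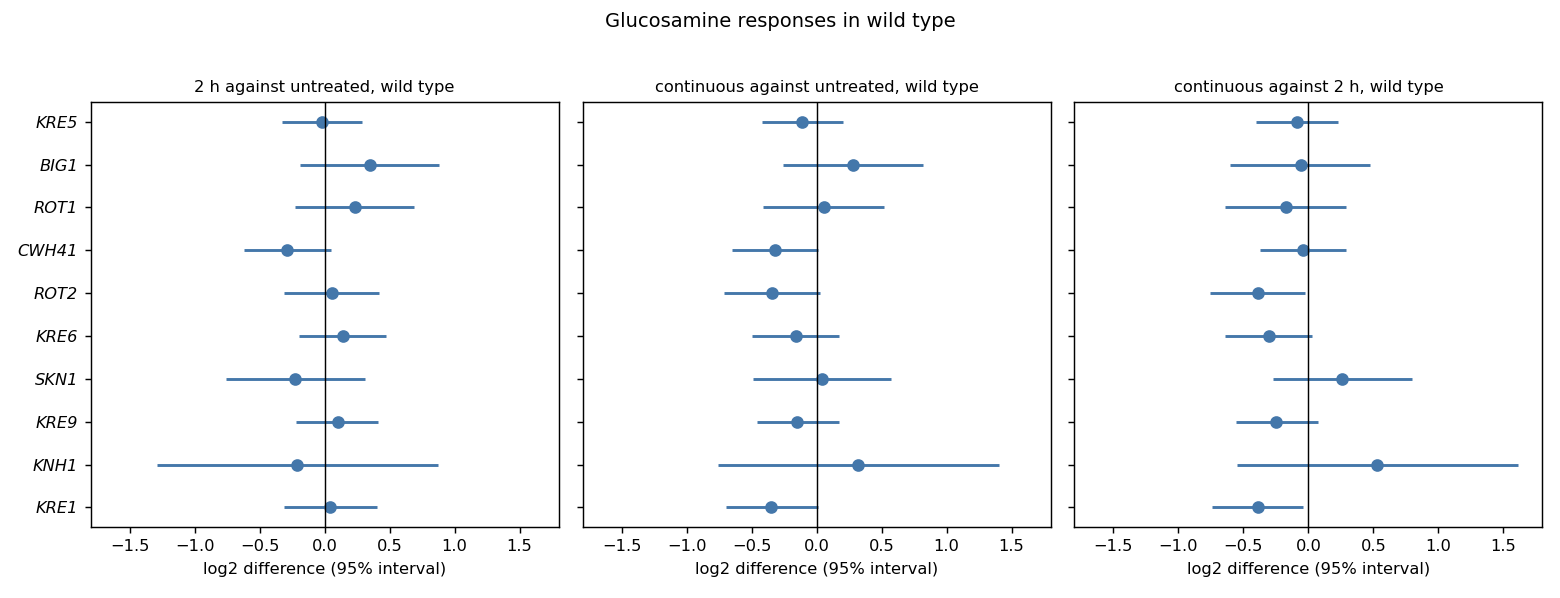
Log2 differences of the 10 genes between the wild-type groups (x axis), with the 95% intervals of the limma fit of 9 arrays as lines and the estimates as points. The intervals of ROT2 (-0.76 to -0.03) and KRE1 (-0.74 to -0.04) in continuous against 2 h glucosamine leave out 0, before any adjustment for the number of probe sets.

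In fks1 cells 9 of the 10 beta-1,6-glucan genes had a higher signal than the wild-type mean at either treatment. With a common median 7 of 10 did in untreated cells. All of the 9 but KNH1 were higher by less than 2-fold. Most probe sets were also higher, 5172 of all 8616 tested in untreated cells and 4936 of 8616 with glucosamine. With 1 fks1 array per treatment, a gene was counted when the fks1 signal was 2-fold or more above all 3 wild-type arrays of that treatment, or 2-fold or more below all 3. By this rule 0 of 10 members were counted in untreated cells, where 3.08% of all probe sets were (265 of 8616; 2.58% higher and 0.499% lower). With glucosamine 0 of 10 members were counted, where 3.11% of all probe sets were (268 of 8616; 2.50% higher and 0.615% lower). KNH1 came closest, at 1.89 to 5.11 times the untreated wild-type arrays and 1.81 to 5.39 times the 2 h arrays. It was counted when untreated array 2 was left out, together with 4.64% of all probe sets, and when 2 h array 2 was left out, again with 4.64%. With an array left out the rule is looser, so counts can only rise. The lowest KNH1 signals in wild type, 30.6 untreated and 29.1 after 2 h, lay near the background level of 25.5. The upper folds of KNH1 therefore rest on low signals.

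Without glucosamine 8 of the 10 genes read above all 3 wild-type arrays, which was so for 38.4% of all probe sets, and KRE1 read below all 3, which was so for 19.5%. The fold against the geometric mean of the wild-type arrays was 2.76 for KNH1, 1.78 for ROT1, 1.69 for SKN1, 1.43 for KRE5 and 1.33 for KRE6. It was 1.26 for BIG1, 1.25 for ROT2 and 1.12 for KRE9. CWH41, at 1.06, lay among the wild-type arrays, and KRE1 stood at 0.863. The median member difference was 0.37 on the log2 scale, and that of all probe sets 0.12, so the array as a whole was shifted the same way. The ACT1 ratio of 0.81 was also the highest of all arrays here, and its part in the result was not tested. When the arrays were scaled to a common median instead, the median of all probe sets moved to -0.08 and that of the members to 0.16. KRE5, ROT1, SKN1 and KNH1 then still read above all 3 wild-type arrays (4 of 10, against 23.5% of all probe sets), while BIG1, ROT2, KRE6 and KRE9 did not.

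With glucosamine 8 of the 10 genes again read above all 3 wild-type arrays of the same treatment, which was so for 33.5% of all probe sets, and KRE1 below, which was so for 21.1%. CWH41 took the place of KRE9 among the 8. The fold against the geometric mean of wild type was 3.19 for KNH1, 1.90 for SKN1, 1.55 for ROT1, 1.45 for ROT2 and 1.41 for BIG1. With a common median 6 genes stayed above all 3 wild-type arrays, KRE5, ROT1, ROT2, KRE6, SKN1 and KNH1, against 25.0% of all probe sets. The main probe sets of KRE5, ROT1, SKN1 and KNH1 thus read above wild type at both treatments as deposited and with a common median. They also did with quantile normalization. There 7 of 10 members read above in untreated cells, ROT2, KRE6 and KRE9 among them, against 27.5% of all probe sets. With glucosamine 7 of 10 did, BIG1, ROT2 and KRE6 among them, against 26.6%. The share of all probe sets above wild type at both treatments was not counted. These values therefore do not set KRE5, ROT1, SKN1 and KNH1 apart. Of the further KRE5 probe sets, 4 of 5 did not read above wild type with glucosamine as deposited.

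A limma fit of all 11 arrays, in which the single fks1 arrays are assumed to vary as the wild-type groups do, called no member in either treatment, while it called 0.592% of all probe sets in untreated cells and 0.429% with glucosamine. In untreated cells ROT1 (log2 0.84, SE 0.29, unadjusted p = 0.0173, adjusted p = 0.27), KRE5 (0.52, SE 0.20, adjusted p = 0.313) and SKN1 (0.76, SE 0.34, adjusted p = 0.399) had an unadjusted p under 0.05 (3 of 10 members, against 12.3% of all probe sets). With glucosamine SKN1 (0.93, SE 0.34, adjusted p = 0.3), KNH1 (1.67, SE 0.68, adjusted p = 0.362), ROT2 (0.54, SE 0.23) and KRE6 (0.48, SE 0.21) did (4 of 10 members, against 12.1%). SKN1 was the 1 gene with an unadjusted p under 0.05 in both.

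**Figure D3:**
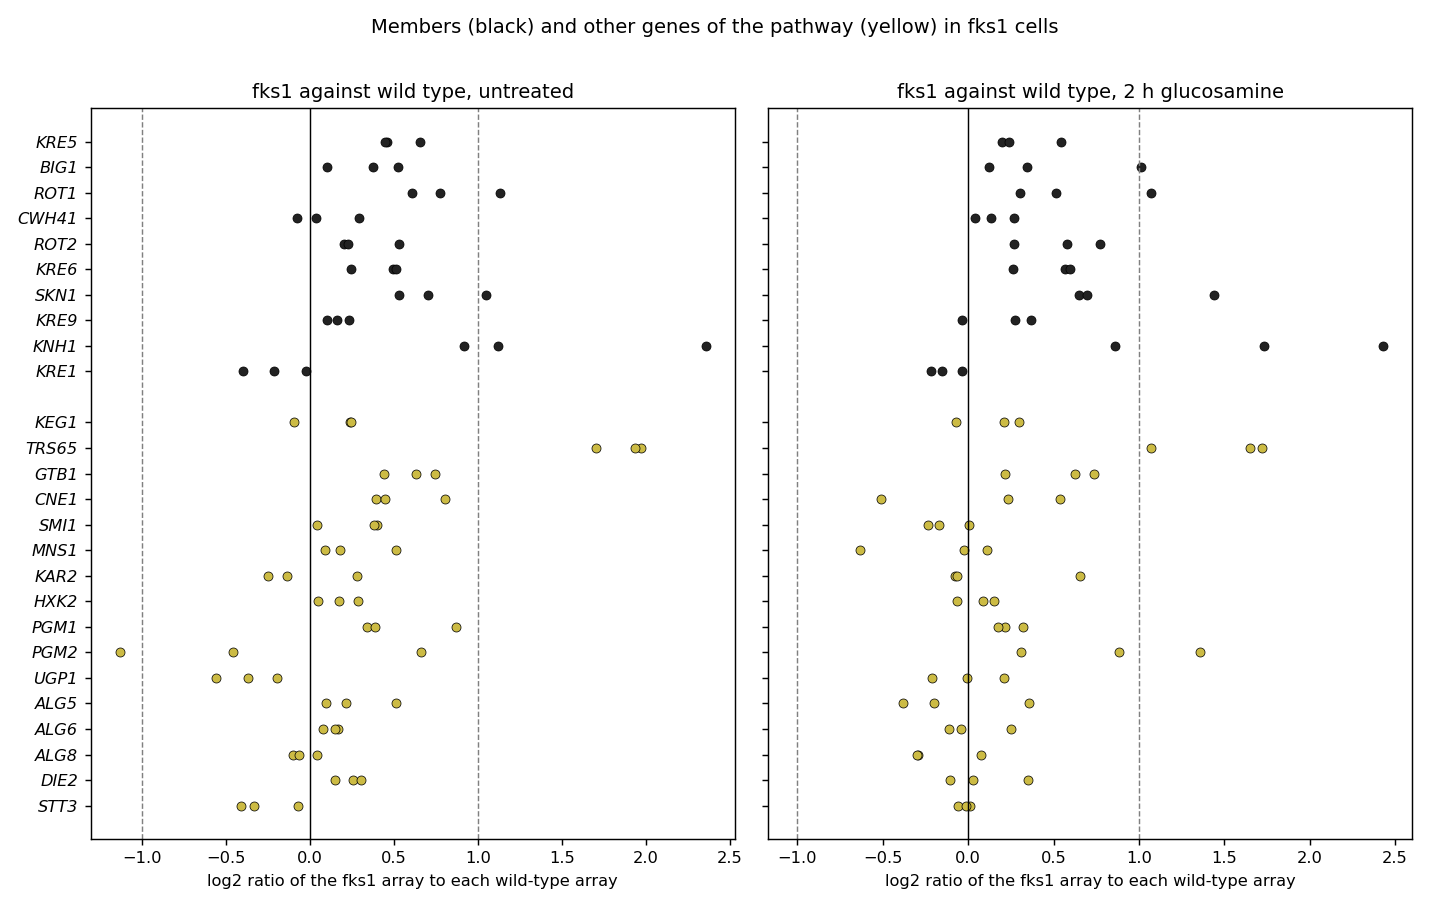
Log2 ratio of the fks1 array to each of the 3 wild-type arrays of the same treatment (x axis) for the 10 members (black) and 16 other genes of the pathway (yellow); each point is 1 wild-type array and dashed lines mark 2-fold. TRS65 lies past 2-fold from all 3 arrays in both panels, and KNH1 is the member farthest to the right.

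Within the fks1 strain, the array with glucosamine and the untreated one differed by at most 1.42-fold in any member, that of BIG1 (log2 0.51). KNH1 (0.0028), ROT1 (0.02) and SKN1 (-0.05), the members highest in fks1 against wild type, differed least. The values have no replicates. The difference between the strains in their response to 2 h of glucosamine passed for no member by limma, where 0.0116% of all probe sets passed, and the member estimates ran from -0.21 for ROT1 to 0.22 for ROT2, with SE from 0.28 to 0.96.

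The homologous genes were compared by the log2 ratio of their signals within each array, whose change between groups shows unequal movement. The size of the ratio itself depends on the probe sets and is not read. The ratio of SKN1 to KRE6 was -1.27, -0.85 and -1.36 in untreated wild type, -1.46, -1.20 and -1.92 after 2 h and -0.65, -1.39 and -0.83 in continuous glucosamine. After 2 h it was lower than untreated within each numbered pair, by -0.18, -0.35 and -0.56 (mean -0.36; exact permutation test within pairs, two-sided, p = 0.25, the smallest that 3 pairs allow; p = 0.300 unpaired). It stood 0.57 higher in continuous than in 2 h glucosamine (SD 0.39 and 0.36, n = 3; exact permutation test, two-sided, p = 0.200), in a design where the smallest p possible is 0.1. In fks1 it was -0.82 untreated and -1.07 with glucosamine, 0.34 and 0.45 above the wild-type means. The ratio of KNH1 to KRE9 stood 1.30 above the wild-type mean in untreated fks1 cells and 1.47 above it with glucosamine, beside SDs of 0.72 and 0.78 over the wild-type arrays. Between wild-type groups that ratio changed by -0.30 to 0.77, with exact permutation p from 0.300 to 0.900 (two-sided, n = 3 per group), and within the untreated and 2 h pairs by -0.94, 0.10 and -0.07.

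Across the 9 wild-type arrays the members tended to vary together, with a median Pearson r of 0.43 over the 45 pairs, against 0.03 over all pairs of 5565 named genes. These correlations are descriptions: the pairs share arrays, the arrays fall into treatment groups, and untreated and 2 h arrays of the same number resemble each other. Of the 45 member pairs 15 had an r above 0.5 (33.3%), as did 13.8% of all gene pairs. The highest were SKN1 with KNH1 (0.87), ROT2 with KRE9 (0.80), and KRE5 with ROT2, KRE5 with ROT1, and ROT2 with KRE6 (0.79 each). The homologous pairs lay lower, KRE6 with SKN1 at -0.06 and KRE9 with KNH1 at 0.13. CWH41 was negative or near 0 with all 9 others, down to -0.75 with BIG1 and -0.55 with ROT1. SKN1 and KNH1 were the lowest in their group, and CWH41 the highest, on untreated array 3, 2 h array 3 and continuous array 2. These arrays had the lowest ACT1 ratio of their group (0.69, 0.65 and 0.73). The part of RNA length in the correlations was not tested. The named genes most like KNH1, the member with the largest fks1 difference, over the 9 wild-type arrays were PCL6 and PEX7 (r = 0.96 each) and AST1 (r = 0.95), among 5564 genes. Their signals were low too, from 69.4 to 180.6 in wild type, and PCL6 and AST1 did not exceed their wild-type range in fks1.

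**Figure D4:**
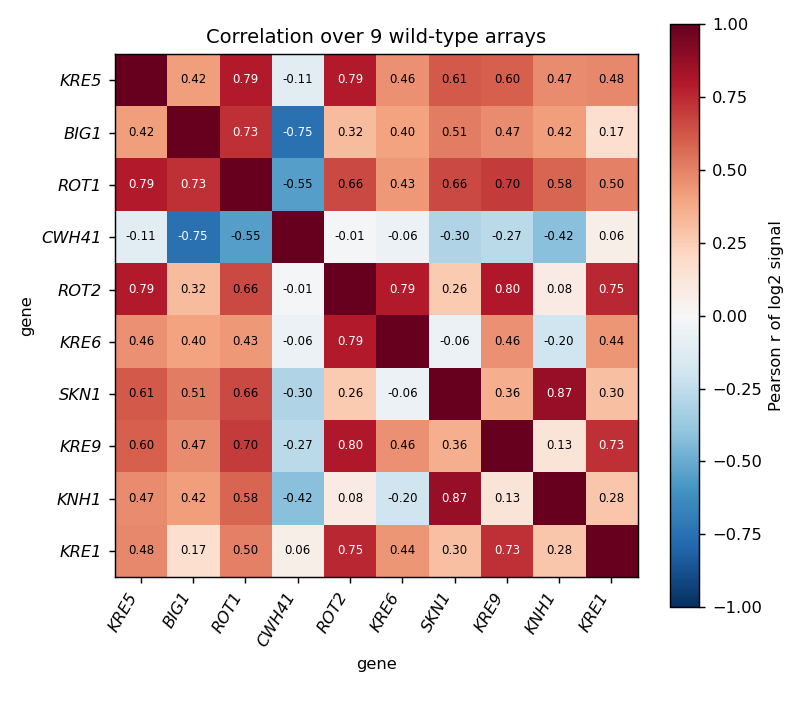
Pearson r of log2 signal over the 9 wild-type arrays for each pair of the 10 genes (colour scale from -1, blue, to 1, red; each gene with itself carries no number). The row of CWH41 is blue or pale, from -0.75 to 0.06, while SKN1 with KNH1, at 0.87, is the darkest pair.

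The other genes of the pathway were grouped by role. Of 16 such genes, none passed in any of the 3 wild-type comparisons by limma. PGM1, the minor of the isoforms of phosphoglucomutase on the way to UDP-glucose, read 588.4, 852.3 and 823.7 untreated, 938.1, 870.7 and 962.5 after 2 h, and 1047.2, 1078.0 and 1103.4 in continuous glucosamine. Its 3 groups did not overlap, and its difference between continuous glucosamine and untreated was log2 0.53 (SE 0.15, unadjusted p = 0.00612, adjusted p = 0.123 by limma). The share of all probe sets with 3 groups apart was not counted. PGM2, the major isoform, had estimates of the opposite sign, -0.42 after 2 h and -0.25 in continuous glucosamine (SE 0.62 each, adjusted p = 0.953 and 0.921), and spanned 5.80-fold over the wild-type arrays. UGP1, which makes UDP-glucose, the donor sugar of the wall glucans, measured -0.22 (SE 0.17, adjusted p = 0.63), and HXK2, a hexokinase, 0.28 (SE 0.12, adjusted p = 0.324). KEG1, an essential membrane protein that binds KRE6, read 374.9, 374.1 and 472.7 untreated and 233.8, 299.6 and 360.8 in continuous glucosamine, without overlap (log2 -0.46, SE 0.20, adjusted p = 0.315). Of the 16 genes 12 were negative in continuous glucosamine against untreated, with a median of -0.19, where 52.4% of all probe sets were positive. Among the 12 were STT3 of the oligosaccharyltransferase (-0.30, SE 0.12, adjusted p = 0.267 by limma) and the glucosyltransferase genes ALG6 (-0.15) and ALG8 (-0.20), which add glucoses to the N-glycan precursor. Negative too, with adjusted p from 0.472 to 0.942 by limma, were MNS1, the mannosidase of the endoplasmic reticulum (-0.45), KAR2, its Hsp70 chaperone (-0.34), ALG5, which makes the glucose donor there (-0.18), SMI1, a regulator of wall synthesis (-0.06), and DIE2, the last of the glucosyltransferases (-0.05). KEG1, STT3, ALG6 and ALG8 (4 of 16) lay below every untreated array, as did 9.48% of all probe sets. TRS65, CNE1 and PGM1 (3 of 16) lay above every untreated array, as did 10.6%. After 2 h HXK2 and PGM1 (2 of 16) lay above every untreated array, as did 4.64% of all probe sets. None of the 16 lay below in that way, where 6.35% of all probe sets did. HXK2 measured log2 0.33 after 2 h (SE 0.12, adjusted p = 0.701 by limma).

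In fks1 TRS65, also known as KRE11, which encodes a subunit of a vesicle tethering complex and whose mutants make less beta-1,6-glucan, was the 1 gene of the 16 that differed at least 2-fold from each wild-type array. It read 592.8 in untreated fks1 cells against 151.3, 182.6 and 154.9 in wild type, and 509.7 with glucosamine against 162.2, 242.5 and 154.6. TRS65 thus read 3.65 times the geometric mean of wild type in untreated cells and 2.79 times with glucosamine. In the limma fit of 11 arrays it passed in untreated cells (log2 1.87, SE 0.29, adjusted p = 0.0233) and had an adjusted p of 0.0662 with glucosamine. GTB1, the noncatalytic subunit of the glucosidase that holds ROT2, read 115.3 and 102.1 in fks1 against 48.2 to 88.0 on all wild-type arrays (1.52 and 1.44 times the means of the same treatment). The calnexin gene CNE1 read 238.7 untreated, above all 3 wild-type arrays, and 197.2 with glucosamine, among them, and the strains' responses to glucosamine did not differ past the threshold (log2 -0.46, SE 0.52, adjusted p = 0.999 by limma). In untreated fks1 cells 10 of the 16 genes read above all 3 wild-type arrays, TRS65, GTB1, CNE1, SMI1, MNS1, HXK2, PGM1, ALG5, ALG6 and DIE2, and 2 below, UGP1 and STT3, where 38.4% and 19.5% of all probe sets did. With glucosamine 4 of the 16 read above, TRS65, GTB1, PGM1 and PGM2, and 0 below, where 33.5% and 21.1% did.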

How the data were processed

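Gene expression in 11 yeast RNA samples was measured on Affymetrix YG-S98 arrays. Per the labels, the authors analysed and normalised the arrays with GeneChip Analysis Suite, and what they deposited is a linear signal for every probe set of each array. For the software, neither version nor scaling target is given in the sources used here. Trimmed means differed by a ratio of 1.0002, so arrays were not rescaled. Signals were floored at 7.7, the 10th percentile of all values, and log2 transformed. After removal of 60 control probe sets, 8616 probe sets above the floor on at least 3 of 9 wild-type arrays were tested, among them all 16 of the members. Symbols came from the platform's gene table.

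Groups were compared with limma 3.58.1 in R 4.3.3 (variance trend, two-sided, Benjamini-Hochberg adjustment over 8616 probe sets), tested on simulated data, and homologue ratios with exact permutation tests (the test within pairs was added later) in scipy 1.17.1. The simulated arrays were drawn independently of each other, so the simulation does not cover the resemblance of same-numbered untreated and 2 h arrays. The text names all 10 members, 16 other pathway genes, the 3 genes most correlated with the member that differed most in fks1, and, as checks, FKS1, ACT1 and mating type genes; members and lists were chosen with earlier results of these data known. Same-numbered untreated and 2 h arrays correlated in their deviations from the group means at 0.356 to 0.570 (over 0.1 in 3 of 3 pairs), continuous and untreated ones at -0.236 to -0.006, so only the first were described as pairs. Differently numbered arrays reached at most 0.005 between untreated and 2 h. They reached 0.313 between untreated and continuous and 0.315 between 2 h and continuous. The replicate blocks among the alternatives were run for all wild-type comparisons, also where same-numbered arrays did not vary together. Alternatives were a floor at 25.5, log2(signal + 50), median scaling, quantile normalization, no filter, no variance trend, replicate blocks and each array left out. The block over the 6 arrays compared and the counts of groups without overlap and of pairs of one sign were added after the data were seen. The number of arrays limits the precision. Gene, promoter and protein sequences were not analysed here.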

Additional observations from a re-analysis of the deposited data

How the results depend on the processing

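No member passed in any wild-type comparison under any alternative, the replicate block included, and the count of members stayed at 0. With 1 array left out, which loosens the 2-fold rule, members past 2-fold in fks1 ran from 0 to 1 at either treatment, the 1 being KNH1. Some directions of uncalled member differences turned, among them those of KNH1 in continuous against untreated (0.32, and -0.13 without untreated array 3) and of SKN1 and KNH1 after 2 h (-0.23 and -0.21, and 0.03 and 0.17 without 2 h array 3). After 2 h, KRE5 measured 0.04 with median scaling and 0.06 with quantile normalization, and in continuous against untreated, ROT1 measured -0.004 and SKN1 -0.02 with median scaling. With 1 array left out, 2 h differences ran from -0.09 to 0.09 for KRE5, -0.08 to 0.17 for ROT2, -0.05 to 0.14 for KRE1, -0.02 to 0.18 for KRE9, -0.37 to 0.03 for SKN1 and -0.65 to 0.17 for KNH1. Continuous against untreated ran from -0.09 to 0.17 for ROT1, -0.11 to 0.18 for SKN1 and -0.13 to 0.61 for KNH1, and continuous against 2 h from -0.33 to 0.12 for BIG1 and -0.12 to 0.02 for CWH41. The homologue ratios kept their direction in all 48 alternatives run, but their size varied with 1 array left out. The SKN1 to KRE6 change ran from -0.52 to -0.17 after 2 h and from 0.05 to 0.42 in continuous against untreated. The KNH1 to KRE9 change ran from -0.75 to -0.01 and from 0.06 to 0.71. In continuous against 2 h they ran from 0.37 to 0.78 and from 0.48 to 1.22. The causes were not tested.

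The counts over all probe sets, used as background, moved more. The 3 calls after 2 h became 0 with the higher floor, 1 with quantile normalization, 0 with the replicate block over 9 arrays and 17 with the block over the 6 arrays compared, and ran from 0 to 1 with 1 array left out. The 124 calls in continuous glucosamine became 18 with the higher floor, 45 with median scaling, 16 without a filter, 11 without a variance trend, and 50 and 0 with the replicate block over 9 and 6 arrays; they ran from 2 (without untreated array 2) to 182 (without 2 h array 3) with 1 array left out, were 16 and 5 when untreated arrays 1 and 3 were dropped in turn, 12 and 26 for continuous arrays 1 and 2, and 68 for 2 h array 2. Of those calls 73.4% were higher, against 55.6% with median scaling and 62.3% with quantile normalization, and without a variance trend the majority turned, with 4 higher and 7 lower (36.4%). The 5 calls of continuous against 2 h became 3 with the higher floor and 0 with the replicate block over 6 arrays, and ran from 2 (without 2 h array 1) to 9 (without continuous array 2). The fks1 counts of 265 and 268 became 84 and 90 with log2(signal + 50) and 51 and 37 in the limma fit of 11 arrays, and ran from 381 to 474 and from 394 to 500 with 1 array left out, the highest without array 1. Their share of higher probe sets was 83.8% and 80.2%, against 62.6% and 68.5% with median scaling and 61.6% and 63.4% with quantile normalization. KNH1 had the widest interval of the members.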
